A study of Mus musculus with 2 samples.

Results

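The genes described here are the classical and related cadherins, the claudins and the non-clustered protocadherins of the mouse, taken as every gene whose symbol is *Cdh*, *Cldn* or *Pcdh* followed by a number alone. *Cdh5*, the cadherin of endothelial cells, was left out. The array named 20281 genes, and 56 of them were members: 22 cadherins, 23 claudins and 11 protocadherins. Values come from 1 *Dullard*-homozygous embryo (Dullard-/-) and 1 *Dullard*-heterozygous embryo (Dullard+/-), both whole C57BL/6 embryos at E7.5, each hybridised to 1 array. Both embryos therefore carried at least 1 mutant *Dullard* allele, and no wild-type embryo was analysed here. The study made a null allele and a *LacZ* allele and designated homozygotes of either as Dullard-/-, and the sources used here do not say which of these alleles was in the embryos on the arrays. *Dullard* (*Ctdnep1*) encodes a phosphatase. Each genotype has 1 embryo, so no difference has a replicate check or a p-value, and every value below describes these embryos.

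Cadherins are calcium-dependent adhesion molecules that bind the same kind of molecule on the next cell and hold the adherens junction to the actin cytoskeleton through the catenins. Claudins form the paracellular strands of the tight junction and set which ions and solutes pass between epithelial cells. Protocadherins share the extracellular cadherin repeats but not the catenin-binding tail, and several are known for cell sorting in the early embryo and in the nervous system. At gastrulation, epiblast cells that pass through the primitive streak lose E-cadherin (*Cdh1*) and gain N-cadherin (*Cdh2*), while the visceral endoderm and the extraembryonic ectoderm stay epithelial.

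Signals are the background-subtracted spot intensities of the deposited scanner output, in arbitrary units. A fold change is Dullard-/- over Dullard+/- after division by the 75th percentile of each array, 264 in Dullard-/- and 286 in Dullard+/-, so a signal that is slightly lower in Dullard-/- can still give a fold change above 1. The error after ± is the SD between replicate spots of like brightness, divided by the square root of the gene's number of spots. It holds no spread between embryos. The scanner software marked 29310 spots of the Dullard-/- array and 31242 of the Dullard+/- array as well above background, out of 43020 each. The probe for *Dullard* gave 144 in Dullard-/- and 672 in Dullard+/- (log2 fold change -2.11 ± 0.06). It was well above background in both embryos. The paper found no *Dullard* mRNA in Dullard-/- embryos of this stage, either with in situ hybridization or with Q-PCR. The null allele lacks every exon, and the *LacZ* allele lacks a part of them. No position is known for the probe, and the source of its signal in Dullard-/- was not tested.

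The labels give 1 embryo per library and no sex. *Xist*, the non-coding RNA of the inactive X chromosome of females, gave 4.55 with its brighter probe in Dullard-/-, not well above background, and 634 in Dullard+/-. The 4 Y-linked genes examined were well above background in both embryos. *Eif2s3y* gave 214 in Dullard-/- and 99.8 in Dullard+/-, *Ddx3y* 132 in Dullard-/- and 89.3 in Dullard+/-, *Uty* 52.0 with its brighter probe in Dullard-/- and 29.5 in Dullard+/-, and *Kdm5d* 10.3 in Dullard-/- and 16.4 in Dullard+/-. The Dullard+/- library thus held signals of *Xist* and of Y-linked genes together although its label gives 1 embryo, and the source of these signals was not tested.

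Of the 56 members, 36 were well above background on both arrays: 15 cadherins, 15 claudins and 6 protocadherins. *Cdh22*, *Pcdh10* and *Pcdh12* were well above background in Dullard-/- alone, which is 5.36% of the members beside 0.749% of all named genes. *Cdh10* was so in Dullard+/- alone, or 1.79% of the members beside 4.45% of all named genes. The remaining 16 members did not reach this mark on either array (28.6%, against 21.9% of all named genes). They were the cadherins *Cdh7*, *Cdh12*, *Cdh17*, *Cdh19* and *Cdh23*, the claudins *Cldn1*, *Cldn8*, *Cldn10*, *Cldn13*, *Cldn16*, *Cldn17*, *Cldn18* and *Cldn24*, and the protocadherins *Pcdh9*, *Pcdh17* and *Pcdh20*. Several of these are known from differentiated organs, such as *Cdh17* from the intestine, *Cldn16* from the kidney and *Cdh23* from the hair cells of the ear. In all, 17 members missed the mark in Dullard-/- and 19 in Dullard+/-. By another flag, for a positive and significant signal, this order was reversed, with 11 members below it in Dullard-/- and 9 in Dullard+/-. Which embryo had more members measured in it alone thus depends on the flag.

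Most members differed little between the embryos. Among the 36 measured on both arrays, 33 lay within 1.5-fold, 3 were at least 1.5-fold higher in Dullard-/- (8.33%, against 3.92% of the 14770 genes measured on both arrays) and 0 were at least 1.5-fold lower (against 3.37%). The 3 were *Pcdh7*, *Cldn19* and *Cdh15*. All of them were in the lowest quartile of signal, where 8.31% of genes were at least 1.5-fold higher in Dullard-/-. That quartile held 14 of the 36 measured members (38.9%). The 8.33% is over all 36, so the like count to set beside 8.31% is 3 of 14. Of the members measured on both arrays, *Pcdh7* alone was at least 2-fold higher (2.78%, against 0.894% of all measured genes), and none was at least 2-fold lower (against 0.765%). A log2 fold change above 0 was found for 21 of 36 members (58.3%, against 52.0% of all measured genes). The median log2 fold change was 0.23 for cadherins, -0.01 for claudins and 0.01 for protocadherins, beside 0.01 for all measured genes. With the members measured on 1 array alone set at their bounds, the median over the members was 0.04, against 0.03 without them. Of those added, 3 entered as higher and 1 as lower in Dullard-/-, so the direction of this change follows from the filter. In whole embryos, fewer cells of a type and less RNA per cell cannot be told apart in any of these values.

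**Figure D1:**
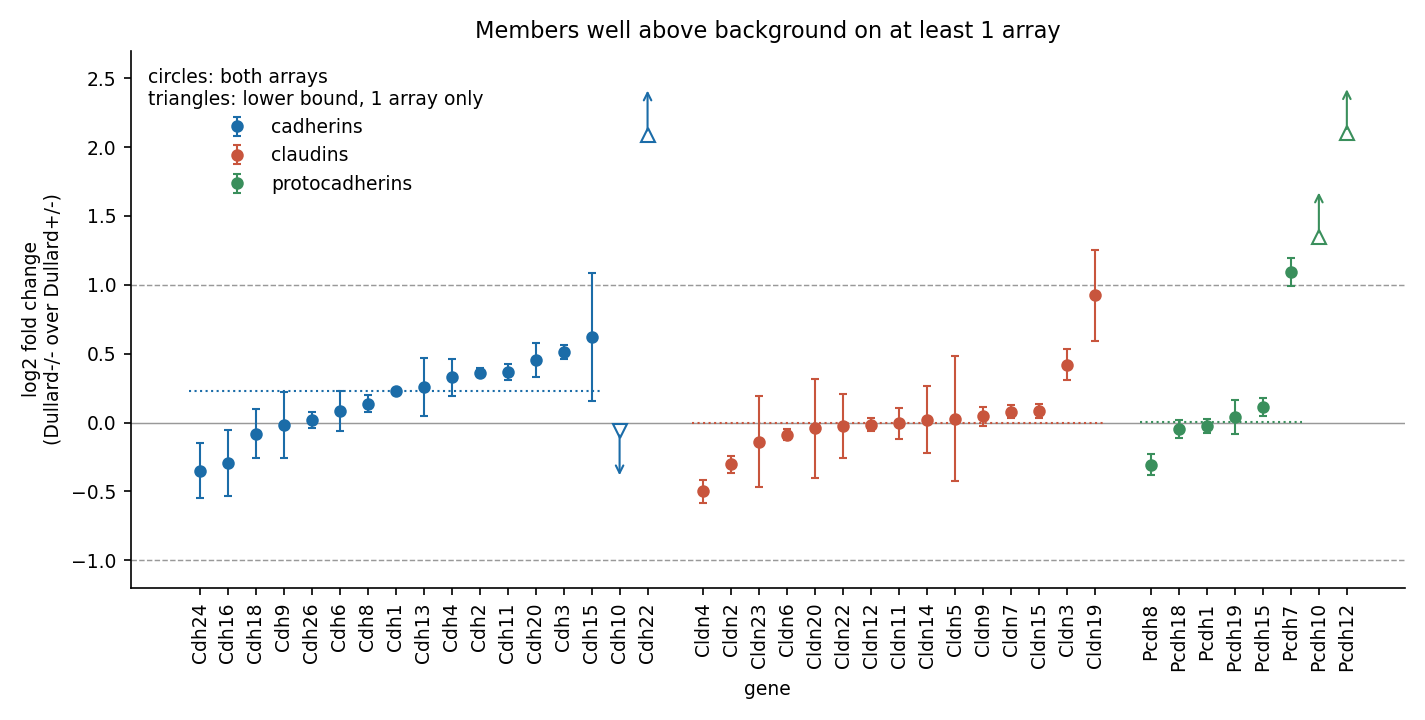
Log2 fold change (Dullard-/- over Dullard+/-, y axis) of the 40 members well above background on at least 1 array, by gene (x axis). Colours mark the families, bars the error from replicate spots, and dotted lines the family medians over members measured on both arrays. Dashed lines mark 2-fold in either direction, and triangles with arrows approximate lower bounds on the size of a difference. The cadherin median is 0.23 and the claudin and protocadherin medians are -0.01 and 0.01.

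The type I cadherins, the classical group that includes E-, N- and P-cadherin, all had higher scaled signals in Dullard-/-. Their median log2 fold change was 0.36 over 5 genes, with a range of 0.23 to 0.62. Of all measured genes, 52.0% had a log2 fold change above 0. *Cdh1*, E-cadherin, the main cadherin of epithelia, had 10 spots of 1 probe. Their signals had a lowest value of 170, a median of 186 and a highest value of 199 in Dullard-/-, against 156, 167 and 185 in Dullard+/-. The spots of the embryos overlapped before scaling, and after scaling each of the 10 was higher in Dullard-/-. The log2 fold change was 0.23 ± 0.02 for the gene, with an SD of 0.06 between spots. *Cdh2*, N-cadherin, which marks mesoderm and neural tissue, gave 2042 and 3359 with its probes in Dullard-/-, against 1761 and 2757 in Dullard+/-. Both probes were higher in Dullard-/-, by 0.33 and 0.40 on the log2 scale (0.36 ± 0.03 for the gene). *Cdh3*, P-cadherin, gave 1538 in Dullard-/- and 1169 in Dullard+/-, which is 1.42-fold (log2 0.51 ± 0.05). The log2 fold changes of *Cdh1*, *Cdh2* and *Cdh3* were above 0 under every alternative processing run.

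*Cdh4*, R-cadherin of the nervous system and retina, had 3 probes whose log2 fold changes lay on both sides of 0. They gave 13.8, 55.2 and 35.4 in Dullard-/-, against 8.80, 46.5 and 42.0 in Dullard+/-, or log2 fold changes of 0.76, 0.36 and -0.13. The gene's value of 0.33 ± 0.14 is their mean, and the first of these probes was past 1.5-fold on its own. *Cdh15*, M-cadherin of skeletal muscle precursors, gave 9.11 in Dullard-/- and 6.40 in Dullard+/- (1.54-fold, log2 0.62 ± 0.46). These signals lie near the lowest signal well above background, which was 7.27 in Dullard-/- and 6.20 in Dullard+/-.

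Type II cadherins, which lack the conserved adhesion motif of type I and are known for sorting neural and mesenchymal cells, had a median log2 fold change of 0.08 over 7 measured genes, 4 above and 3 below 0. *Cdh11*, a mesenchymal cadherin, gave 317 with its brighter probe in Dullard-/- and 223 in Dullard+/- (log2 0.62, 1.54-fold). The dimmer probe gave 80.7 in Dullard-/- and 80.8 in Dullard+/- (log2 0.11), so the gene's 0.37 ± 0.06 averages probes on both sides of 1.5-fold. *Cdh22*, a cadherin of the brain and pituitary, gave 24.4 in Dullard-/- and 2.31 in Dullard+/-, where it was not well above background. It was higher in Dullard-/- by an approximate lower bound of 4.26-fold, from 1 spot (SD 0.46 on the log2 scale for spots of like brightness). The bound used whichever was higher on the Dullard+/- array, the probe's own dim signal or the lowest signal marked as well above background. Some probes without that mark gave more than this lowest signal, so the bound is approximate. *Cdh10* gave 2.34 in Dullard-/-, not well above background, and 8.21 in Dullard+/-, for an approximate bound of 1.04-fold lower in Dullard-/-. *Cdh20*, a neural cadherin, had a log2 fold change of 0.45 ± 0.12 and *Cdh24* one of -0.35 ± 0.20, the ends of the range of the type II genes measured on both arrays. The other 4, *Cdh6*, *Cdh8*, *Cdh9* and *Cdh18*, lay between -0.08 and 0.14. Among the other cadherins, the membrane-anchored *Cdh13* (0.26 ± 0.21), the kidney cadherin *Cdh16* (-0.30 ± 0.24) and *Cdh26* (0.02) had a median of 0.02.

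**Figure D2:**
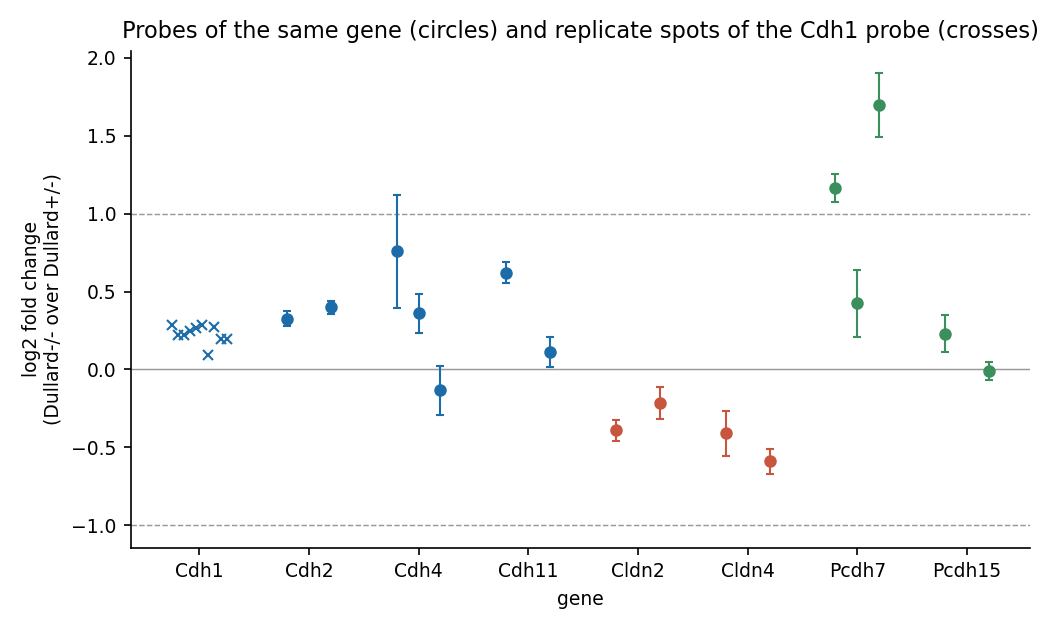
Log2 fold change (Dullard-/- over Dullard+/-, y axis) of each probe of the members with several measured probes (x axis), with the error from replicate spots as bars, and of the 10 replicate spots of the *Cdh1* probe (crosses). The probes of *Pcdh7* run between 0.42 and 1.70 and those of *Cdh4* between -0.13 and 0.76.

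The marker lists of the embryo's tissues differed in different directions. The summed signal of the epiblast markers (5 of 5 well above background on both arrays) was 16530 in Dullard-/- and 11532 in Dullard+/-, a scaled ratio of 1.55, with a log2 fold change above 0 for 4 of the 5. For the nascent mesoderm markers (6 of 6) the sums were 2065 in Dullard-/- and 1725 in Dullard+/-, a scaled ratio of 1.29, but 4 of the 6 genes were below 0 and their median log2 fold change was -0.03. *Mixl1* (1.39) and *Lhx1* (0.50) were above 0, while *T* (-1.19), *Msgn1* (-1.88), *Mesp1* (-0.04) and *Tbx6* (-0.01) were below it. For the definitive endoderm markers (4 of 4, all above 0) the sums were 13429 in Dullard-/- and 9810 in Dullard+/-, a ratio of 1.48. *Cer1* made up most of these sums, with 8523 in Dullard-/- and 5493 in Dullard+/-. The paper used *Cer1* as a marker of the anterior visceral endoderm, so this ratio is not specific to definitive endoderm. The visceral endoderm markers (7 of 7) had sums of 29612 in Dullard-/- and 33176 in Dullard+/- (ratio 0.965), and the extraembryonic ectoderm and trophoblast markers (6 of 7, with *Tpbpa* not well above background on either array) 2782 in Dullard-/- and 3442 in Dullard+/- (ratio 0.874). The primitive blood markers, of which 2 of 4 were well above background on both arrays, had sums of 187 in Dullard-/- and 529 in Dullard+/- (ratio 0.383). The decidua markers, listed for maternal tissue, had a ratio of 0.978, with *Prl8a2* not well above background on either array. *Cryab* made up most of their sums, with 618 of 672 in Dullard-/- and 684 of 742 in Dullard+/-. The dimmer *Des* (0.25) and *Pgr* (-0.55) lay on opposite sides of 0, so the ratio does not measure the share of maternal tissue. The part of tissue composition in the cadherin values was not tested.

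Most claudins lay close to a log2 fold change of 0. *Cldn6*, a claudin of embryonic epithelia, gave 14007 in Dullard-/- and 16104 in Dullard+/- (log2 -0.09 ± 0.04). *Cldn7*, of epithelial lateral membranes, gave 1705 in Dullard-/- and 1747 in Dullard+/- (0.08 ± 0.05). *Cldn9*, which lies beside *Cldn6* on chromosome 17 with no protein-coding gene between them, gave 249 in Dullard-/- and 260 in Dullard+/- (0.05 ± 0.07). *Cldn5*, the claudin of endothelium, gave 8.21 in Dullard-/- and 8.70 in Dullard+/- (0.03 ± 0.45), close to the lowest signals well above background. The log2 fold changes of *Cldn5*, *Cldn7* and *Cldn9* changed sign under other scalings, so no direction is given for them. Over the 15 measured claudins 7 were above and 8 below 0, and the range was -0.50 to 0.92. The 7 not named with their signals, *Cldn11*, *Cldn12*, *Cldn14*, *Cldn15*, *Cldn20*, *Cldn22* and *Cldn23*, lay between -0.14 and 0.09.

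The ends of this range were *Cldn4* and *Cldn19*. *Cldn4*, a pore-sealing claudin that also binds the *Clostridium perfringens* enterotoxin, gave 33.7 and 105 with its probes in Dullard-/-, against 48.4 and 171 in Dullard+/-. Both probes were lower in Dullard-/-, with log2 fold changes of -0.41 and -0.59, and the brighter one was past 1.5-fold. The gene's log2 fold change was -0.50 ± 0.08. *Cldn19*, known from the kidney and from myelinating Schwann cells, gave 16.3 in Dullard-/- and 9.27 in Dullard+/- (1.90-fold, log2 0.92 ± 0.33). *Cldn2*, a cation-pore claudin whose gene is X-linked and which was added after its values were seen, gave 228 and 65.7 in Dullard-/-, against 323 and 82.5 in Dullard+/-, lower with both probes (-0.30 ± 0.06). The part of the *Xist* and Y-linked signals given above in the values of X-linked members was not tested.

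*Cldn3*, which was also added after its values were seen, is the neighbour of *Cldn4* on chromosome 5, with no protein-coding gene between them. It seals epithelia like *Cldn4*, and gave 71.0 in Dullard-/- and 57.4 in Dullard+/- (1.34-fold, log2 0.42 ± 0.11), so the neighbours differed in opposite directions. Their promoters are printed because of this. The sequences are the 250 bases before the start of each gene from RefSeq, assembly GRCm38.p6, in the direction of transcription. The design of the array was built on another assembly, and no array coordinates were used. Capitals mark E-boxes (CANNTG, searched on both strands, which read alike), the motif bound by Snail repressors in its form CAGGTG or CACCTG.
Cldn3 (chr5:134985964-134986213, + strand): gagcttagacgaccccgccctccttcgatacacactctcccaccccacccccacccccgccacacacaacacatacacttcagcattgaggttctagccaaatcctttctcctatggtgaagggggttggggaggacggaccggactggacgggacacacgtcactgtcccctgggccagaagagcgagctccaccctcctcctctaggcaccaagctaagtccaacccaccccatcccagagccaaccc
Cldn4 (chr5:134946935-134947184, - strand): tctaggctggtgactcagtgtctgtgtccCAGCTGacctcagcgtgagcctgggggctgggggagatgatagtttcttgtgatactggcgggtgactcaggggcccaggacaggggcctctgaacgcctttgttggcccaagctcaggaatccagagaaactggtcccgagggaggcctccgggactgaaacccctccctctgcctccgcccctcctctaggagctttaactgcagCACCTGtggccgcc
The *Cldn4* promoter held 2 E-boxes, of which 1 was of the Snail type, and the *Cldn3* promoter held 0. An E-box occurs in 66.2% and one of the Snail type in 17.2% of the 32851 promoters of the table, so a match is common and describes letters, not a bound site. Both promoters held 1 GC box (GGGCGG or CCGCCC, in 32.7% of promoters), and neither held a TATA box (TATAAA or TTTATA, in 12.4%). They held 9 CpG dinucleotides in *Cldn3* and 7 in *Cldn4*, near the median of 6. The table held promoters of 41 genes whose symbols follow the rule of the members, counted without regard to the array.

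**Figure D3:**
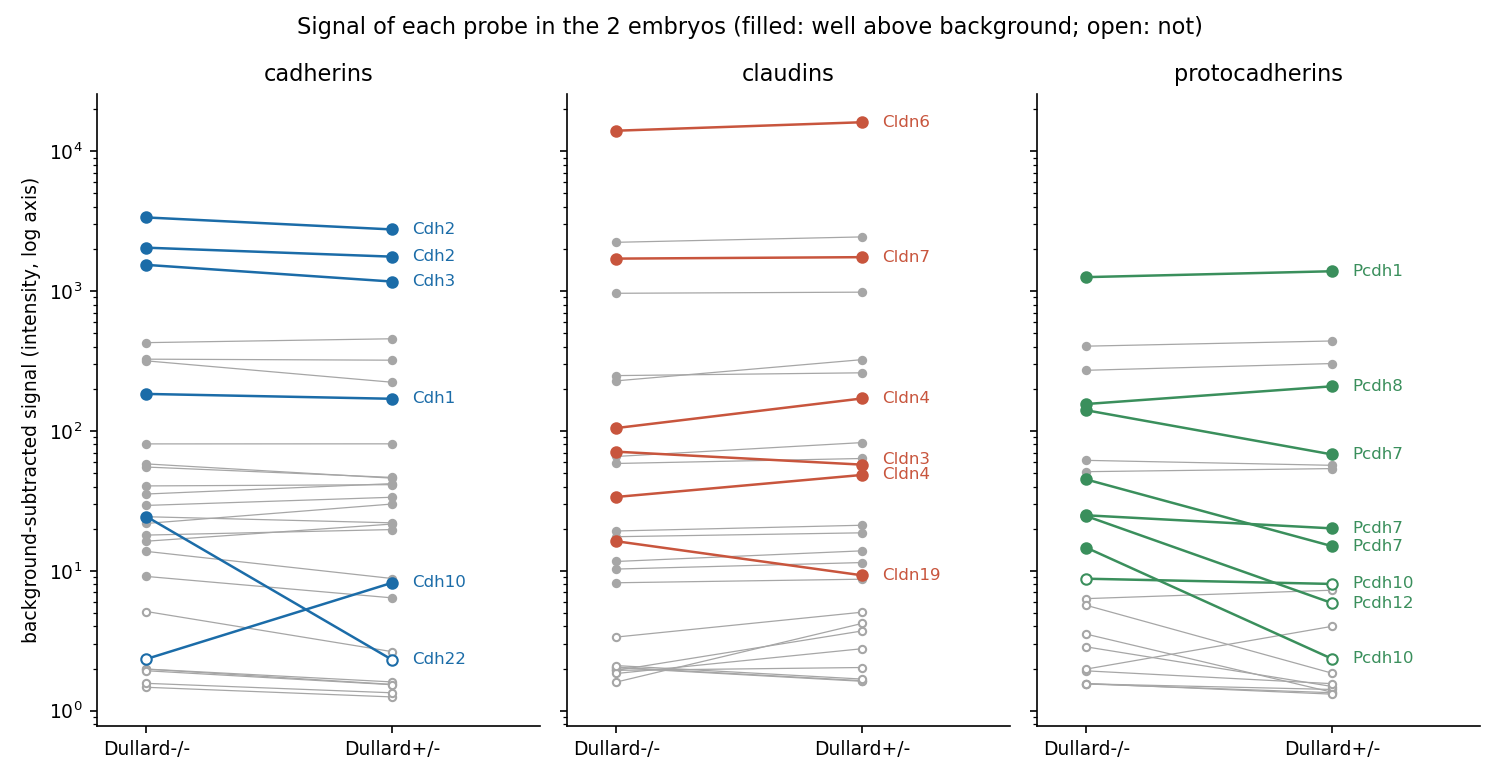
Background-subtracted signal (arbitrary units, log axis) of named members in the Dullard-/- embryo (left) and the Dullard+/- embryo (right), with 1 line per probe, filled circles well above background, open circles not, and members without a label in grey. *Cldn6* is at 14007 in Dullard-/- and 16104 in Dullard+/-, and the probes of *Pcdh7* all lie higher in Dullard-/-.

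*Pcdh7*, a delta-1 protocadherin (NF-protocadherin in frogs, where it is needed for ectodermal cohesion and in the neural tube), had the largest log2 fold change of the members measured on both arrays. Its probes gave 140, 24.9 and 44.9 in Dullard-/-, against 67.8, 20.1 and 15.0 in Dullard+/-. All 3 probes were higher in Dullard-/-, and their log2 fold changes of 1.16, 0.42 and 1.70 spread from under 1.5-fold to 3.24-fold. The gene's mean was 1.09 ± 0.10, or 2.14-fold. It was below 2-fold without scaling (0.98) and with the normexp background correction (0.51). *Pcdh1*, the other delta-1 member measured, gave 1257 in Dullard-/- and 1385 in Dullard+/- (-0.03 ± 0.05), with a sign that changed under other scalings.

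Among delta-2 protocadherins, *Pcdh8* (paraxial protocadherin, expressed in the primitive streak and the paraxial mesoderm) gave 156 in Dullard-/- and 208 in Dullard+/-, lower in Dullard-/- by a log2 fold change of -0.31 ± 0.08. *Pcdh10* had 1 probe that gave 14.6 in Dullard-/- and 2.34 in Dullard+/-, well above background in Dullard-/- alone. Its approximate lower bound was 2.55-fold higher in Dullard-/-, from 1 spot (SD 0.56 on the log2 scale for spots of like brightness). The other *Pcdh10* probe gave 8.77 in Dullard-/- and 8.05 in Dullard+/- and was not well above background on either array, so the difference rests on 1 probe. *Pcdh19*, X-linked and known from an epilepsy of heterozygous females in humans, gave 51.1 in Dullard-/- and 53.8 in Dullard+/- (0.04 ± 0.12), and its sign changed under other scalings. *Pcdh18* had a log2 fold change of -0.05. *Pcdh12*, a vascular and trophoblast protocadherin, gave 24.6 in Dullard-/- and 5.87 in Dullard+/-, where it was not well above background. The approximate lower bound for *Pcdh12* was 4.29-fold higher in Dullard-/-, from 1 spot (SD 0.34 on the log2 scale for spots of like brightness). The endothelium markers (4 of 4 well above background on both arrays) had sums of 1933 in Dullard-/- and 1597 in Dullard+/-, a scaled ratio of 1.31. *Kdr* (0.64), which makes up most of the sums, and *Cdh5* (1.10) were above 0, and *Pecam1* (-0.38) and *Tek* (-0.93) were below it. Their part in the *Pcdh12* value was not tested. *Pcdh15*, of the hair cells of the ear, had 2 of 6 probes measured on both arrays, at log2 fold changes of 0.23 and -0.01. The protocadherin median of 0.01 became 0.07 with *Pcdh10* and *Pcdh12* at their bounds. Both entered as higher in Dullard-/-, so the direction of this change was fixed by the filter.

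*Pcdh7* had the largest log2 fold change of the members measured on both arrays, and *Cdh22* and *Pcdh10* were measured in Dullard-/- alone. Their promoters are printed next, as the 250 bases before the start of the gene from the same table. They hold no E-box and so no capitals. Those of *Pcdh12*, *Cldn19* and *Cdh15* are not printed here.
Pcdh7 (chr5:57717831-57718080, + strand): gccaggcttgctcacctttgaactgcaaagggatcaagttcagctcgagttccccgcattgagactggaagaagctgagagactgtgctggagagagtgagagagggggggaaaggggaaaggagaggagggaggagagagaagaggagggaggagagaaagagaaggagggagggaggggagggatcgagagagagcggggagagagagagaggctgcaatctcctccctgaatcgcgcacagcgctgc
Cdh22 (chr2:165234738-165234987, - strand): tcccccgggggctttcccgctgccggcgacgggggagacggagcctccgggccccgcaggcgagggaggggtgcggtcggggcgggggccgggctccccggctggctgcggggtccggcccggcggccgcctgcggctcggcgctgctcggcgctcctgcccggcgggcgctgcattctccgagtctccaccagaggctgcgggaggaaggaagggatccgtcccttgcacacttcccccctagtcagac
Pcdh10 (chr3:45378148-45378397, + strand): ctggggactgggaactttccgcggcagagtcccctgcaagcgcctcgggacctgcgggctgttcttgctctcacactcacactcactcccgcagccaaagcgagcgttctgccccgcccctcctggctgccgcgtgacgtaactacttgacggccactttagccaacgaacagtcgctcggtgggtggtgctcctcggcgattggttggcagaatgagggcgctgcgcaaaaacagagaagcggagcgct
None of them held a TATA box. *Cdh22* and *Pcdh10* each held 1 GC box and *Pcdh7* held 0. CpG dinucleotides numbered 30 in *Cdh22*, 22 in *Pcdh10* and 7 in *Pcdh7*, beside a median of 6 over all promoters. No match says only that these letters are not in this window.

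**Figure D4:**
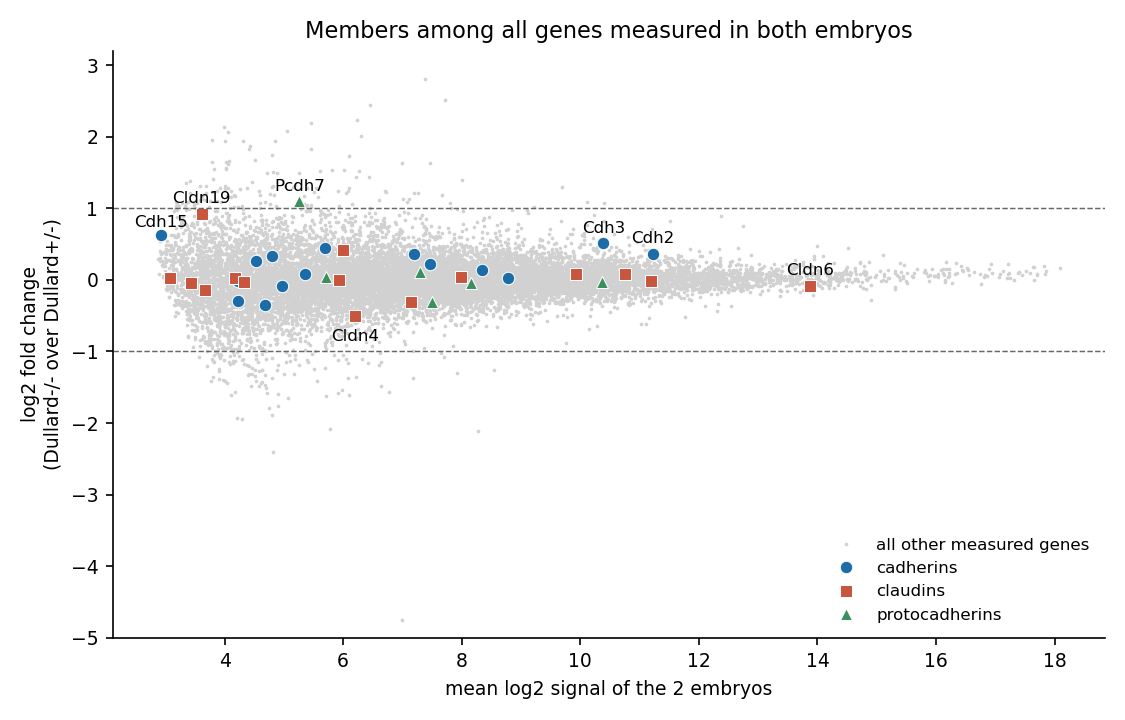
Log2 fold change (Dullard-/- over Dullard+/-, y axis) against mean log2 signal of the embryos (x axis) for the 14770 genes measured on both arrays (grey) and the members by family (colour). The members past 1.5-fold, *Pcdh7*, *Cldn19* and *Cdh15*, lie in the lowest quartile of signal, where the grey points spread most.

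The proteins that join cadherins and claudins to the cytoskeleton were examined as lists of named genes. Of 24 adherens junction partners, 20 were measured on both arrays, 14 above and 6 below 0, with a median log2 fold change of 0.10. Of all measured genes, 52.0% were above 0. *Ctnnb1*, beta-catenin, which binds the cadherin tail and carries the Wnt signal, gave 26113 in Dullard-/- and 20821 in Dullard+/- (0.44 ± 0.04). *Ctnna1*, alpha-catenin, the link to actin, had a log2 fold change of 0.03, and *Ctnnd1*, p120-catenin, which keeps cadherins at the membrane, one of -0.19. *Lima1*, an actin-binding protein that joins alpha-catenin, was the gene of the list past 1.5-fold (1 of 20 higher, against 3.92% of all measured genes), with 529 in Dullard-/- and 353 in Dullard+/- (0.70 ± 0.06).

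All 22 tight junction partners were measured, 14 above and 8 below 0 (52.0% of all measured genes were above 0), with a median of 0.09. The scaffold *Tjp1* had a log2 fold change of 0.27, the strand protein *Ocln* one of 0.32, and *Epcam*, which binds claudins, one of 0.10. *Ildr1*, of tricellular junctions, was the gene of the list past 1.5-fold (1 of 22 higher), with 55.7 in Dullard-/- and 39.4 in Dullard+/- (0.61 ± 0.14). The median was 0.00 over 7 of 9 desmosome genes, 0.09 over 13 of 15 apical polarity genes and -0.08 over 13 of 18 large and atypical cadherins. No gene of these lists measured on both arrays was at least 2-fold higher (against 0.894% of all measured genes), at least 2-fold lower (against 0.765%) or at least 1.5-fold lower in Dullard-/- (against 3.37%). The lowest was *Dsg2* of the desmosome list, at 0.669-fold (log2 -0.58 ± 0.06), just short of 1.5-fold lower. *Ctnnd2* of the adherens junction list and *Dchs1* of the large cadherins were well above background in Dullard+/- alone. They are 1 of 24 and 1 of 16 genes of their lists on the array, against 4.45% of all named genes. *Ctnnd2* gave 5.94 with its brighter probe in Dullard-/- and 6.93 in Dullard+/-, and *Dchs1* 6.74 in Dullard-/- and 10.14 in Dullard+/-. The Dullard-/- signals lay just below the lowest one well above background there (7.27), so the mark does not show a loss of either gene.

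**Figure D5:**
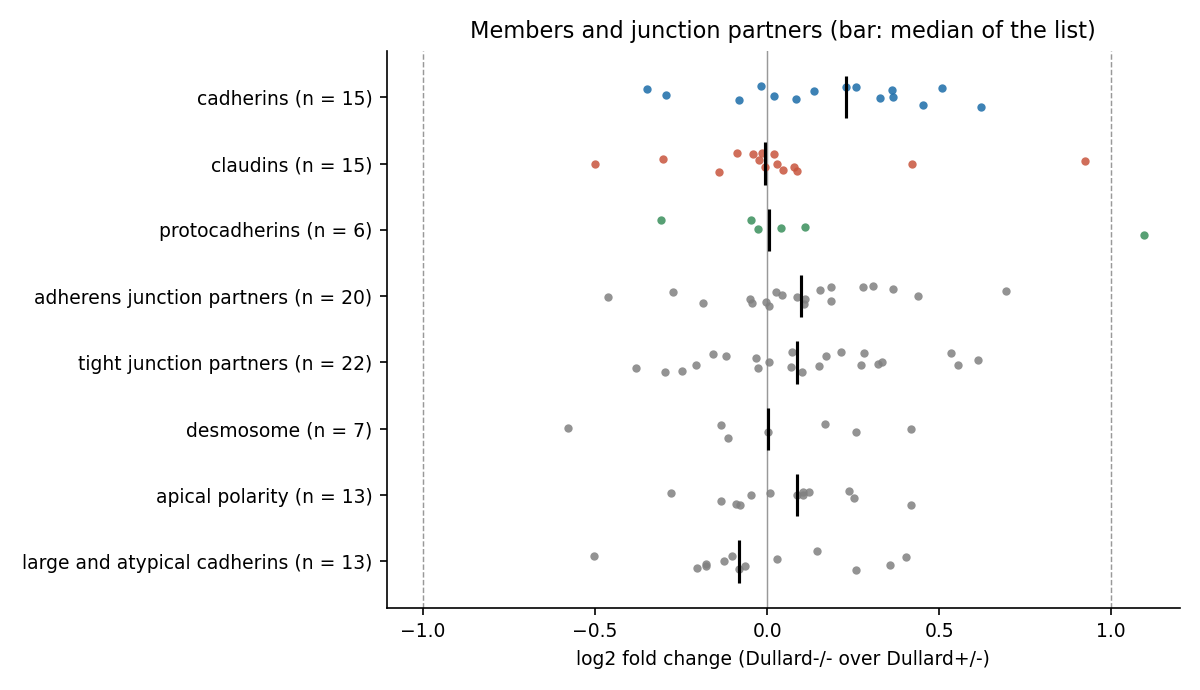
Log2 fold change (Dullard-/- over Dullard+/-) of each measured gene of the members' families and of the partner lists, with the median of each list marked. The list medians run from -0.08 for large and atypical cadherins to 0.23 for cadherins, beside 0.01 for all measured genes.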

How the data were processed

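The authors deposited the scanner output of 1-colour Agilent arrays, 1 per embryo, read with Agilent Feature Extraction 10.10, whose spot intensity values have the background subtracted. They also deposited a table of processed intensity values, which is the same linear signal times a constant per array (5.20 for Dullard-/-, 4.91 for Dullard+/-, with medians of 181 for Dullard-/- and 189 for Dullard+/-) and served as an alternative. The sources used here do not say how the constants were chosen. The paper and the labels name different amplification kits, and neither was chosen. Both arrays share a slide and a scan.

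The members and gene lists were chosen with earlier results of these data known. Of the 43020 spots that are not controls, 206 with an outlier mark were left out, and 0 were saturated. RefSeq accessions of the probes gave a symbol to 30235 spots and none to 12785. Log2 signals were taken relative to the 75th percentile of each array, replicate spots were averaged by probe, and the log2 fold change of a gene averages those of its probes marked as well above background on both. The spot error pools the 40 replicated probes (of 399) nearest in signal. Between different probes of a gene the pooled SD was 0.29 over 3747 genes. For probes so marked on 1 array alone, the bound compares normalized signals, the dim array at the higher of its lowest signal well above background and the probe's own. Some probes without the mark exceed that lowest signal, as a *Pcdh10* probe did with 8.05 in Dullard+/- beside 6.20. The bounds are therefore approximate. Probe sequences were not used, so cross-hybridization between like members was not tested.

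Genes are named with both signals where they passed 1.5-fold, were measured on 1 array alone, had probes on both sides of 1.5-fold, or belong to a set of early-embryo members. *Cdh20*, *Cdh24*, *Cdh13*, *Cdh16*, *Cdh26*, *Cldn2*, *Cldn3*, *Pcdh15*, *Pcdh18* and the sex-linked genes fall outside this rule and were chosen after their values were seen. Of the partner lists, genes past 1.5-fold and a few core components are named, and 1 of those components is not reported here. *Ctnnd2*, *Dchs1*, *Dsg2* and the single marker genes were also chosen after their values were seen. The steps from spot signals to the log2 fold change of a gene were also tested on simulated data. The background and outlier marks of the real arrays were kept there. The bounds, list medians, marker sums, alternatives and promoter counts were not part of that test. Alternatives were scaling to the median, no scaling, quantile normalization, loess (span 0.3), the percentile over spots well above background, normexp (offset 50) on median signals, the brightest probe, the mean of linear folds, no filter on dim probes, outlier spots kept, the deposited table and another background flag. With 1 array per genotype the number of arrays limits the precision. Python 3.11.15, numpy 2.4.6, pandas 2.3.3, statsmodels 0.14.6, matplotlib 3.10.9, R 4.3.3 and limma 3.58.1 were used.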

Additional observations from a re-analysis of the deposited data

How the results depend on the processing

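The cadherin median stayed above 0 under all 11 alternatives run, between 0.10 with normexp and 0.33 without a filter on dim probes. Without scaling, the median of all genes moved from 0.01 to -0.10, and the medians were -0.0790 for all members, -0.12 for claudins, -0.11 for protocadherins, -0.0155 for adherens junction partners, -0.0260 for tight junction partners, -0.11 for the desmosome, -0.0247 for apical polarity and -0.19 for large and atypical cadherins. The desmosome median was -0.0751 with quantile normalization, -0.0691 with loess and 0.17 with the brightest probe, which gave 0.18 for apical polarity. With normexp, whose offset pulls folds of dim probes towards 1, the median of large and atypical cadherins was 0.0331, and without a filter on dim probes that of protocadherins was 0.37. Members at least 2-fold higher in Dullard-/- numbered 0 without scaling, 2 with quantile normalization, 0 with normexp and 6 without the filter, which gave 2 at least 2-fold lower. Members at least 1.5-fold higher numbered 0 with normexp and 8 without the filter, and those at least 1.5-fold lower 1 without scaling, 1 with the brightest probe and 3 without the filter. By the flag for a positive and significant signal in place of well above background, members below it numbered 11 in Dullard-/-, 9 in Dullard+/- and 8 in both. The causes were not tested. None of the members at least 1.5-fold apart changed sign under any alternative run. No paired analysis was possible because each genotype has 1 embryo, and for the same reason no replicate could be left out.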

Other observations

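The clustered protocadherins, which the rule leaves out by their names and which are known for giving neurons their identity, are given here beside the shares of all named genes. Of 35 on the array, 12 were measured on both arrays, 0 in Dullard-/- alone and 3 in Dullard+/- alone (4.45% of all named genes were), and 20 were not well above background on either (21.9% of all named genes were not). The median log2 fold change of the 12 was -0.09, with 3 above and 9 below 0, and none was past 1.5-fold. *Pcdhga9*, of the gamma cluster, gave 2177 with the brighter of its 2 probes in Dullard-/- and 2386 in Dullard+/-. The gene's log2 fold change of -0.26 ± 0.05 averages both probes, and the error leaves out the spread between them. The brighter probe was close to even after scaling, so the gene's value comes mostly from the dimmer probe. Genes of the gamma cluster share their last exons, so a probe there may read several of them, and their values are uncertain as values of single genes.

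*Cdh5*, VE-cadherin, was set apart from the members and gave 20.7 in Dullard-/- and 10.4 in Dullard+/- (log2 1.10 ± 0.28).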
